A study of Mus musculus with 18 samples.

Results

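The genes described here encode 10 chemokine receptors of mouse invariant NKT (iNKT) cells, namely *Ccr2*, *Ccr4*, *Ccr6*, *Ccr7*, *Ccr8*, *Ccr9*, *Ccr10*, *Cxcr3*, *Cxcr4* and *Cxcr6*. They were chosen by symbol from a table of read counts per gene, with earlier results of these data known. All 10 had counts and all 10 passed the filter on low counts, out of 15582 genes with a count in any library and 11118 genes tested. *Ccr6* passed that filter through NKT17 cells, since it was at or near 0 in the other subsets.

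The study asked how weaker T cell receptor signalling shapes thymic iNKT cell subsets, using SKG mice, which carry a spontaneous point mutation in *Zap70*, the kinase that acts directly downstream of the T cell receptor. Thymic NKT1, NKT2 and NKT17 cells were sorted from both WT and SKG animals, giving 6 groups of 3 libraries. Both genotypes were on the BALB/c background. They were bred separately as F3 offspring from WT and SKG animals of the same F2 cross, so linked or background differences travel with the genotype. Age was not given in the sources used here, and nothing stated how many thymi entered a library.

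All sorted cells bound the CD1d tetramer loaded with α-galactosylceramide. NKT1 cells were ICOS low and CD49a positive. NKT2 cells lacked CD49a and Sdc-1 and were high for ICOS, CD4 and TCRβ. NKT17 cells lacked CD49a, were ICOS high and expressed Sdc-1. None of the 10 receptors was part of a gate. The libraries held 4391029 to 8895917 counts, and replicate pairs differed by more than sampling noise. In WT cells, 6 of 6 NKT1 markers were higher in NKT1 than in NKT2 (13.7% of all genes) and NKT17 (11.2%). In WT NKT17, 6 of 6 NKT17 markers were higher than in NKT1 (13.5% of all genes) and NKT2 (11.0%). Of the NKT2 markers, 5 of 6 were higher in NKT2 than in NKT1 (13.7% of all genes), but only *Il4* and *Il13* exceeded NKT17 (8.97%). The NKT17 markers include *Sdc1* and the NKT2 markers *Icos*. Their proteins were part of the gates, so these genes do not check the labels independently. In SKG cells, 6 of 6 NKT1 and 6 of 6 NKT17 markers were again higher in their own subset. Between SKG subsets, 18.7% to 22.8% of all genes were called either way. Against WT, SKG NKT17 had 4 of 6 NKT17 markers lower (*Blk*, *Il17a*, *Il1r1* and *Il23r*), beside 4.54% of all genes, and 0 higher. SKG NKT2 had 3 of 6 NKT2 markers lower (*Gata3*, *Icos* and *Il13*), beside 4.05% of all genes, and 0 higher. SKG NKT1 had 0 NKT1 markers called either way. Whether each gate held equivalent cells in both genotypes was not tested. *Zap70* itself was transcribed in every group, at means of 396 to 789 CPM (counts scaled to a library size of 1000000), which cannot show the mutation. SKG cells differed from WT by a log2 fold change of -0.24 for NKT1, -0.39 for NKT2 and -0.58 for NKT17, below 1.5-fold each time.

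Chemokine receptors are G protein-coupled receptors with 7 membrane-spanning helices that steer cells along gradients of chemokines. Their repertoire sets where a lymphocyte goes: lymph node and thymic medulla through CCR7, skin and mucosa through CCR4, CCR8, CCR9 and CCR10, and inflamed or peripheral tissue through CCR2, CCR6, CXCR3 and CXCR6. iNKT cells acquire distinct receptor sets as they mature in the thymus.

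Promoters of *Ccr6* and *Ccr8*, the receptors with the largest SKG log2 fold changes in NKT17, are shown first. RefSeq (GRCm38.p6) gave 9 promoter entries for 8 of the 10 genes, each with 250 bases before and 50 after a transcription start. *Ccr7* and *Ccr10* had no entry. *Ccr6*, the receptor for CCL20, had 2 starts, and *Ccr8*, the receptor for CCL1, had 1. Capitals mark the motif TAGGTCA, here as its reverse complement, in the first *Ccr6* promoter at chr17:8235793-8236092, plus strand. In the second, at chr17:8242276-8242575, and in *Ccr8* at chr9:120091883-120092182, both also plus strand, they mark a GATA motif (AGATAA or its reverse complement).
Ccr6 first start: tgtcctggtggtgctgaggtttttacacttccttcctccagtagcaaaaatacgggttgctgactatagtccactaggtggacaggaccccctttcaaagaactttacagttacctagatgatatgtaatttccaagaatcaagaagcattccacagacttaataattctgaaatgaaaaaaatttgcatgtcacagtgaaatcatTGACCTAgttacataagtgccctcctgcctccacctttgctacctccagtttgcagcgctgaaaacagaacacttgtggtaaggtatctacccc
Ccr6 second start: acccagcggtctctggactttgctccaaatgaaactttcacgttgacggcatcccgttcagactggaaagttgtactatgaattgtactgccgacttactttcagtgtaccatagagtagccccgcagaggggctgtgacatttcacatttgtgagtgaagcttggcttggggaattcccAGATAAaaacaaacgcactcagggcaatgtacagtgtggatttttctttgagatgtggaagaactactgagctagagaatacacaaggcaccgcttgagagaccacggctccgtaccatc
Ccr8: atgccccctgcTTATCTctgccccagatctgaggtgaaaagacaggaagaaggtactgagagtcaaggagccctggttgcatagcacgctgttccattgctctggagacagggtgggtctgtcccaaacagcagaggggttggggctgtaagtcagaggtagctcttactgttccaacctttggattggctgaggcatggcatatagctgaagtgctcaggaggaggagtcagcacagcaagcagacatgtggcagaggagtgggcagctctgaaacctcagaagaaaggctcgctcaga

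The TAGGTCA motif lay at bases 207 to 213 from the 5′ end, 37 bases before the start base. Both strands were searched, and a match describes letters, not a bound site. Among 32851 RefSeq promoters of this length, 2.61% held TAGGTCA and 11.2% held AGATAA. *Ccr2* also held AGATAA, together with 2 copies of the NFAT core GGAAAA, present in 23.4% of promoters. The other 5 genes with an entry held none of the motifs searched, which also included the T-box core GGTGTGA (3.98% of promoters) and the KLF motif CCACACCC (3.56%).

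On NCBIM37, *Ccr6* lies at chr17:8429077-8449992 (plus strand), *Ccr8* at chr9:120001251-120004024 (plus strand) and *Ccr4* at chr9:114399434-114405662 (minus strand). *Ccr7* lies at chr11:99005510-99016391, *Cxcr3* at chrX:98926874-98929608 and *Cxcr4* at chr1:130484776-130488870, all on the minus strand. The positions of the other 4 receptors are given with their values.

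Each subset carried its own receptor set, with *Cxcr6* the most abundant of the 10 in all 6 groups. Levels between genes were compared per kilobase of exon. In WT NKT1 cells *Cxcr6* stood at 1915 CPM per kb, ahead of *Cxcr3* at 419 and *Ccr8* at 97.5. In WT NKT2 cells the order was *Cxcr6* (322 CPM per kb), *Ccr4* (204), *Ccr7* (132) and *Cxcr3* (50.4). In WT NKT17 cells *Cxcr6* reached 1377 CPM per kb, followed by *Ccr2* at 90.7 and *Ccr4* at 55.9.

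In SKG cells this ranking kept its first 6 places in NKT1, while *Ccr6* moved from sixth in WT NKT17 to the place behind *Cxcr6* in SKG NKT17, at 314 CPM per kb. *Cxcr6* supplied 78.2% ± 1.98 (SD, n = 3) of the summed CPM of the 10 genes in WT NKT1 and 33.9% ± 4.50 in WT NKT2. The summed level was higher in every SKG group than in its WT counterpart, at 6375 against 4631 CPM in NKT1, 2998 against 1796 in NKT2 and 5332 against 3434 in NKT17.

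**Figure D1:**
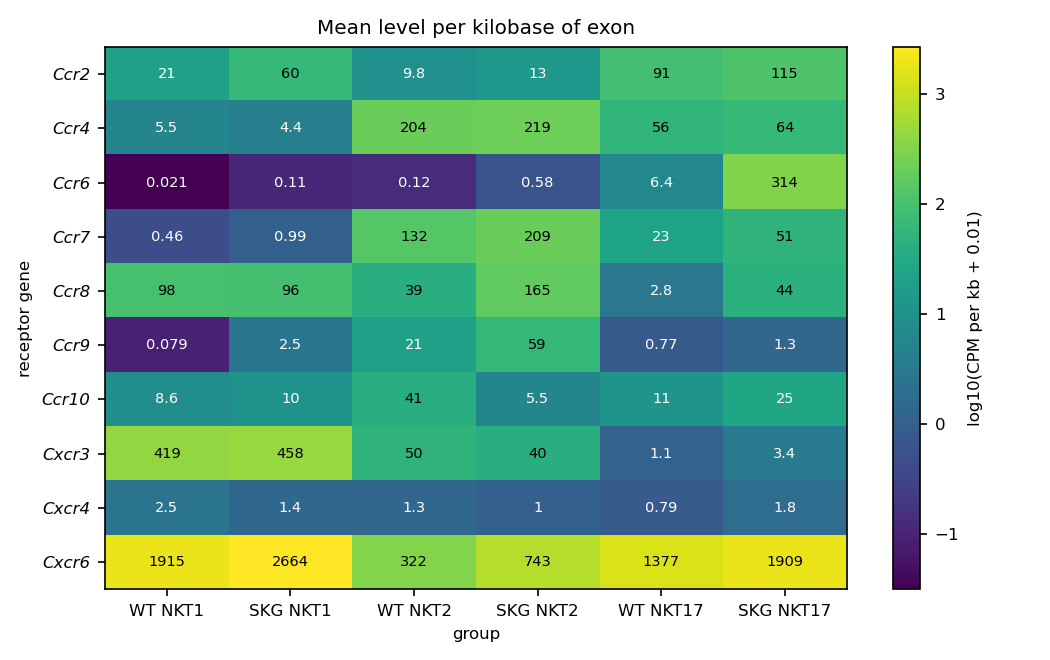
Mean level of each receptor gene (rows) in each genotype and subset (columns, n = 3 libraries each), printed in CPM per kilobase of exon and coloured on a log10 scale. *Cxcr6* is highest in every column, at 322 to 2664 CPM per kb, and *Ccr6* reaches 314 only in SKG NKT17.

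Between WT subsets the receptors separated sharply. A gene was called at an adjusted p under 0.1 (edgeR quasi-likelihood test, Benjamini-Hochberg over all 11118 genes) and a fold change of at least 1.5. NKT1 and NKT2 differed in 8 of 10 receptors, where 27.5% of all genes were called. Of these, 4 were higher in NKT1 (13.7% of all genes) and 4 lower (13.7%). NKT1 and NKT17 also differed in 8, where 24.7% of all genes were called, with 3 higher in NKT1 (11.2% of all genes) and 5 lower (13.5%). NKT17 and NKT2 differed in 9, with 3 higher in NKT17 (11.0% of all genes) and 6 lower (8.97%). The median absolute log2 fold change of the 10 was 2.40, 3.44 and 2.87, against 0.41, 0.35 and 0.33 over all genes. These comparisons share groups, so their counts are not independent. The receptors were chosen with earlier results of these data known. The values over all genes, here and below, therefore give scale and do not test whether the 10 stand out.

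Among SKG subsets the counts were 7 of 10 between NKT1 and NKT2 (18.7% of all genes called), 7 between NKT1 and NKT17 (22.8%) and 9 between NKT17 and NKT2 (18.8%). Between genotypes, SKG cells differed from WT in 2 of 10 receptors in NKT1, where 3.27% of all genes were called. Both were higher, as were 1.46% of all genes, with 0 lower against 1.82%. In NKT2 they differed in 3, where 7.95% of all genes were called, with 2 higher (3.90% of all genes) and 1 lower (4.05%). In NKT17 they differed in 4, where 8.37% of all genes were called, all higher (3.83% of all genes) and 0 lower (4.54%). In total 7 receptors were called in at least 1 subset, and *Ccr4*, *Cxcr3* and *Cxcr4* in none. SKG effects differed between subsets in 4 receptors for NKT2 against NKT1 (3.87% of all genes called), 2 for NKT17 against NKT1 (4.17%) and 3 for NKT17 against NKT2 (2.19%).

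The SKG change was above 0 for 7 receptors in NKT1 (48.3% of all genes), 7 in NKT2 (49.1%) and all 10 in NKT17 (50.5%). The median log2 fold change of the 10 was 0.34, 0.55 and 1.14, against -0.01, -0.00 and 0.00 over all genes. These medians include *Ccr6* in NKT1 and NKT2, where no group mean exceeded 1.09 CPM. The libraries of the genotypes did not overlap for 3 receptors in NKT1, 5 in NKT2 and 6 in NKT17, against 16.3%, 30.1% and 26.9% of all genes. The p-values set each difference against a spread between libraries that was estimated over all 6 groups. In bulk RNA, a change in the share of expressing cells and a change in RNA per cell cannot be told apart.

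**Figure D2:**
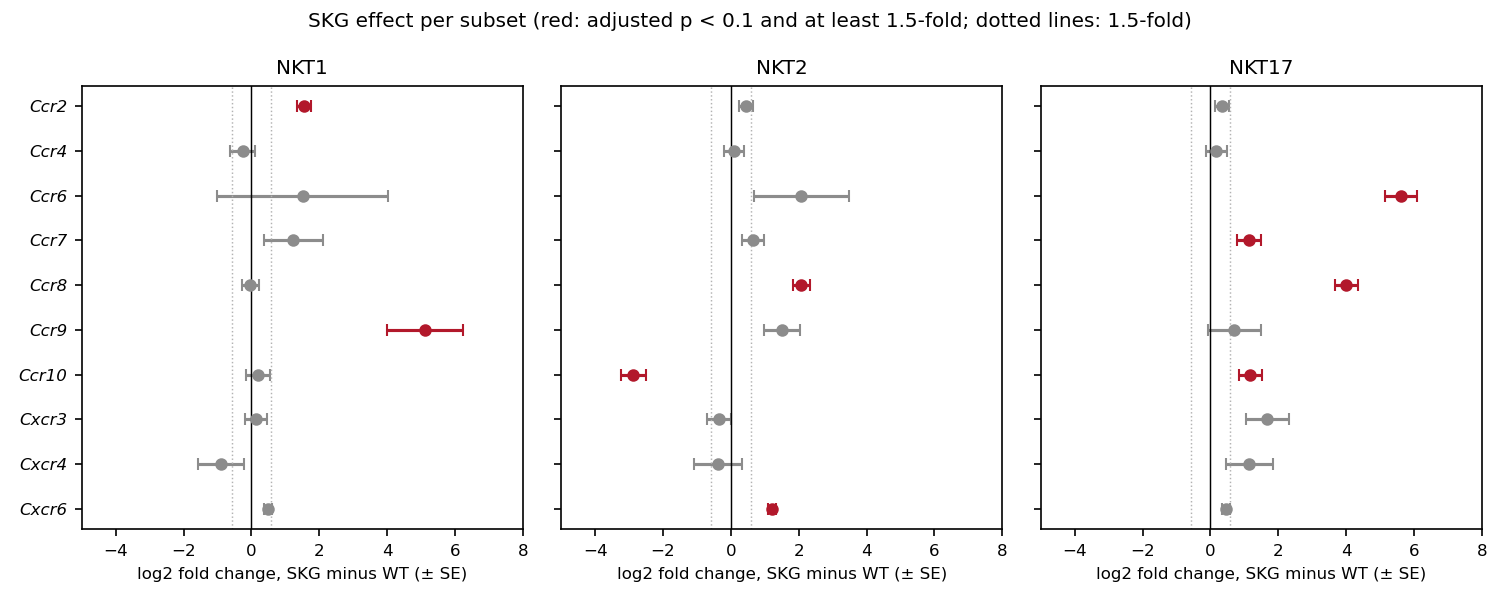
Log2 fold change, SKG minus WT, ± SE from the edgeR fit, for each receptor in NKT1, NKT2 and NKT17; red points passed an adjusted p of 0.1 and a 1.5-fold change (dotted lines). There are 2 red points in NKT1, 3 in NKT2 and 4 in NKT17, and of these only *Ccr10* in NKT2 lies on the negative side.

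*Ccr6* showed the widest gap between genotypes. In WT NKT17 libraries it stood at 18.3, 3.65 and 14.1 CPM (94, 21 and 103 counts), and in SKG NKT17 libraries at 593, 618 and 565 CPM (4188, 3544 and 3013 counts). The 3 SKG libraries lay far above all WT libraries and close to each other, and the WT libraries varied among themselves. The log2 fold change was 5.62 (SE 0.47, adjusted p = 5.32e-06 by edgeR). Outside NKT17, 11 of 12 libraries held 0 to 3 counts and 1 SKG NKT2 library held 14. Against a floor of 3 counts per library, *Ccr6* was at least 24.6-fold higher in NKT17 than in NKT1 of WT mice and at least 1044-fold higher in SKG mice. With the other subsets this close to 0, the SKG effect could not be shown to differ from that in NKT1 (adjusted p = 0.777) or NKT2 (0.637).

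CCR6 is a chemokine receptor that B cells also carry. The summed level of 8 B cell markers, 6 of them with counts in the table, was 25.8 to 41.8 CPM in SKG NKT17 and 8.50 to 12.2 in WT NKT17. *Cd79b* made up 34.6 CPM of the SKG mean and rose (log2 fold change 1.91, adjusted p = 0.00264 by edgeR), whereas *Ms4a1* and *Ebf1* were at 0 in SKG NKT17. The part of B cells in the *Ccr6* difference was not tested.

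*Ccr8* was higher in SKG NKT2 and SKG NKT17 but not in SKG NKT1. In NKT2 the libraries stood at 56.8, 41.6 and 37.1 CPM in WT and 216, 198 and 159 CPM in SKG. In NKT17 they stood at 3.71, 4.69 and 1.37 CPM in WT and 37.2, 61.2 and 54.6 CPM in SKG. The genotypes did not overlap in either subset, with log2 fold changes of 2.08 (SE 0.26, adjusted p = 3.23e-05 by edgeR) and 4.01 (SE 0.33, adjusted p = 2.41e-07).

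In NKT1, *Ccr8* stood at 121, 81.1 and 136 CPM in WT and 94.9, 119 and 117 CPM in SKG, with overlapping libraries and a log2 fold change of -0.03 (SE 0.25). Its SKG effect differed between all 3 pairs of subsets: by 2.11 between NKT2 and NKT1 (adjusted p = 0.00184), by 4.04 between NKT17 and NKT1 (2.07e-05) and by 1.92 between NKT17 and NKT2 (0.0223; edgeR interaction contrasts). The order of the subsets changed with it. *Ccr8* was highest in NKT1 among WT subsets, whereas SKG NKT2, at 191 ± 29.6 CPM, exceeded SKG NKT1 at 111 CPM. That last difference (log2 fold change -0.79 for NKT1 against NKT2, adjusted p = 0.0293 by edgeR) was lost without replicate 1 of SKG NKT1 or of SKG NKT2, up to an adjusted p of 0.114.

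*Ccr10*, whose product binds the epithelial chemokines CCL27 and CCL28, was the only receptor called lower in SKG cells, in NKT2. In NKT2 its libraries stood at 98.2, 77.7 and 34.9 CPM in WT and 8.14, 11.3 and 8.98 CPM in SKG. The lowest WT library was still above all SKG libraries, and the log2 fold change was -2.88 (SE 0.37, adjusted p = 2.35e-05 by edgeR). In NKT17 the direction was opposite, at 20.9, 16.0 and 21.2 CPM in WT and 26.7, 49.8 and 54.6 CPM in SKG. There the log2 fold change was 1.17 (SE 0.34, adjusted p = 0.0361 by edgeR), which was lost without WT replicate 2, SKG replicate 2 or SKG replicate 3, up to an adjusted p of 0.161. The SKG effects differed by 4.05 between NKT17 and NKT2 (adjusted p = 0.000124 by edgeR) and by -3.08 between NKT2 and NKT1 (0.00107).

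*Ccr10* (NCBIM37, chr11:101034311-101036757, minus strand) lies wholly inside *Cntnap1*, on the opposite strand, with 0 exon bases shared. The library preparation did not keep strand. *Cntnap1* fell in SKG NKT2 as well, from 42.9, 47.8 and 11.8 CPM to 2.86, 3.13 and 2.73 CPM (log2 fold change -3.55, SE 0.61, adjusted p = 0.000463 by edgeR). It was also the gene most like *Ccr10* over the 18 libraries, by root-mean-square distance of standardised log2 CPM (0.487 SD). In NKT17, *Cntnap1* stood at 3.56 CPM in WT and 6.29 CPM in SKG and was not called (adjusted p = 0.477). How far reads of one gene entered the count of the other was not tested.

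**Figure D3:**
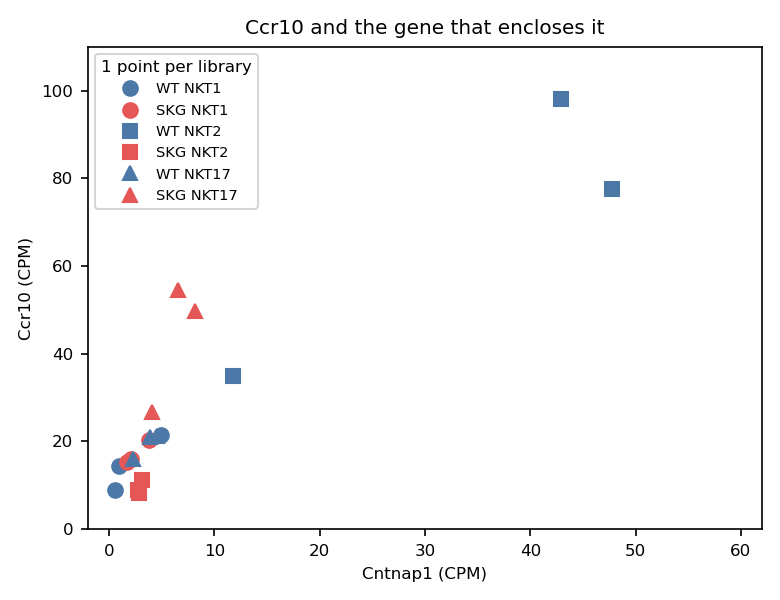
*Ccr10* against *Cntnap1*, both in CPM, with 1 point per library; colour marks genotype and shape marks subset. The 3 WT NKT2 libraries hold the highest *Cntnap1* values, 11.8 to 47.8 CPM, while SKG NKT17 libraries reach 54.6 CPM of *Ccr10* at no more than 8.19 CPM of *Cntnap1*.

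*Ccr4*, the receptor for CCL17 and CCL22, marked NKT2 cells in both genotypes. It stood at 606, 574 and 593 CPM in WT NKT2 and 715, 555 and 626 CPM in SKG NKT2. It was intermediate in NKT17 (162 CPM in WT, 184 in SKG) and low in NKT1 (15.8 and 12.8 CPM). Subsets did not overlap, whereas genotypes overlapped within every subset, with log2 fold changes of -0.26 (SE 0.38), 0.10 (SE 0.30) and 0.18 (SE 0.30) in NKT1, NKT2 and NKT17. Those intervals still allow modest changes. The most similar gene was *Igfbp4* (distance 0.173 SD), at 244 CPM in WT NKT2 and 1.12 CPM in WT NKT1.

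*Ccr7*, which guides cells into the thymic medulla and lymph nodes, followed the same subset order. In NKT2 it stood at 255, 268 and 263 CPM in WT and 429, 396 and 413 CPM in SKG. In NKT17 it stood at 43.7, 48.8 and 44.0 CPM in WT and 86.6, 102 and 113 CPM in SKG. SKG libraries lay above WT in both subsets.

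The NKT17 difference of *Ccr7* was called, with a log2 fold change of 1.14 (SE 0.35, adjusted p = 0.0610 by edgeR). That call was lost in 10 of 15 alternative analyses, DESeq2 and the replicate block among them, with adjusted p from 0.000200 to 0.303, while the log2 fold change kept to 1.03 to 1.23. In NKT2 the log2 fold change of 0.66 (SE 0.33, adjusted p = 0.289 by edgeR) was not called, but a fit of only the compared libraries called it (0.67, adjusted p = 6.91e-05). Over the 15 alternatives the adjusted p ran up to 0.639. NKT1 libraries held at most 3.95 CPM of *Ccr7*.

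*Ccr9*, the receptor for the thymic and gut chemokine CCL25, was also highest in NKT2. There it stood at 50.2, 43.1 and 105 CPM in WT and 192, 144 and 236 CPM in SKG. The libraries did not overlap, but the log2 fold change of 1.52 (SE 0.53) was not called (adjusted p = 0.105 by edgeR). It was called without WT NKT2 replicate 3, the highest WT library, and with a filter at a mean of 50 counts, at adjusted p down to 0.0644.

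In NKT1, *Ccr9* held 0, 4 and 0 counts in WT and 71, 34 and 24 counts in SKG, or 0.254 against 8.14 CPM. SKG libraries lay above all WT libraries. The log2 fold change of 5.13 (SE 1.12, adjusted p = 0.0269 by edgeR) rests on few WT counts. It ranged from 4.39 to 8.57 with 1 library left out, the highest value without WT replicate 2, which leaves WT at 0 counts. The call was lost without WT replicate 1 or SKG replicate 1, up to an adjusted p of 0.107. *Ccr9* shares 8.36% of its exon bases with *Gm17200* on the same strand, so its counts are less certain. It also overlaps *Lztfl1* on the opposite strand by 23210 bases, with 0 exon bases shared. *Lztfl1* stood at 57.2 CPM in WT NKT2 and 64.7 CPM in SKG NKT2, and at 18.6 to 29.8 CPM in the other groups. It was called in no comparison of SKG with WT. How far reads of *Lztfl1* entered the count of *Ccr9* was not tested. NKT17 cells held 2.47 CPM of *Ccr9* in WT and 4.14 CPM in SKG.

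CCR7 and CCR9 are shared with other thymocytes. The summed level of 7 markers of conventional and regulatory T cells, *Ccr7* left out, was 340 to 534 CPM in SKG NKT2 against 200 to 416 in WT NKT2, and 229 to 256 in SKG NKT17 against 135 to 196 in WT NKT17. *Igfbp4* supplied most of it in NKT2, while *Foxp3* was at 0 in both NKT2 groups. In NKT1 the same sum was lower in SKG (12.1 to 21.5 CPM) than in WT (56.5 to 72.3). The 8 markers of double-positive thymocytes summed to 59.2 to 74.7 CPM in SKG NKT2 against 35.5 to 42.5 in WT, and to 52.8 to 84.1 in SKG NKT17 against 28.7 to 37.9 in WT. *Rag1* was at 0 in all of these 4 groups. The part of such cells in the *Ccr7* and *Ccr9* differences was not tested.

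*Cxcr4*, the receptor for CXCL12 and a receptor of early thymocytes, was low throughout, at 1.42 to 4.51 CPM. All neighbours in the order of its 6 group means overlapped. Its 1 call, NKT1 above NKT17 in WT (log2 fold change 1.60, SE 0.70, adjusted p = 0.0942 by edgeR), had overlapping libraries and was lost in 8 of 14 alternatives, with adjusted p from 0.0170 to 0.298.

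*Ccr2*, the receptor for CCL2 that brings cells to inflamed tissue, was highest in NKT17. There it stood at 515, 596 and 629 CPM in WT and 719, 706 and 778 CPM in SKG. In NKT1 it stood at 170, 101 and 123 CPM in WT and 382, 454 and 318 CPM in SKG. The genotypes did not overlap in either subset, but only NKT1 was called, with a log2 fold change of 1.55 (SE 0.21, adjusted p = 0.000339 by edgeR) against 0.34 (SE 0.20, adjusted p = 0.358) in NKT17.

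The rise of *Ccr2* in NKT1 exceeded its change in NKT17, by 1.20 on the log2 scale (interaction -1.20, adjusted p = 0.0309 by edgeR). Against NKT2, where *Ccr2* stood at 62.4 CPM in WT and 84.6 in SKG, the interaction was -1.10 (adjusted p = 0.0569) and was lost in 9 of 21 alternatives, with adjusted p from 0.00261 to 0.137.

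*Cxcr3*, the receptor for the interferon-induced chemokines CXCL9 and CXCL10, belonged to NKT1. It stood at 686 to 762 CPM in WT NKT1 (mean 726) and at 736, 782 and 860 CPM in SKG NKT1, with a log2 fold change of 0.13 (SE 0.33). WT NKT2 held 87.2 CPM and WT NKT17 held 1.88 CPM, and no 2 subsets overlapped in either genotype. In NKT17 the SKG mean was 5.87 CPM, with overlapping libraries and a log2 fold change of 1.68 (SE 0.63) that was not called (adjusted p = 0.131 by edgeR), although DESeq2 called it, as did the test without WT NKT17 replicate 2. Its nearest genes were *Sh2d3c* (0.194 SD), *Cdh1* (0.204) and *Tbx21* (0.207), the last encoding the NKT1 lineage factor T-bet.

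*Cxcr6*, the receptor for CXCL16 and a hallmark of iNKT cells, was higher in SKG in each subset. In NKT2 it stood at 517, 680 and 630 CPM in WT and 1271, 1440 and 1506 CPM in SKG, a log2 fold change of 1.21 (SE 0.12, adjusted p = 4.27e-07 by edgeR). In NKT1 it stood at 3460, 4014 and 3400 CPM in WT and 5170, 5235 and 4726 CPM in SKG. In NKT17 it stood at 2301, 3173 and 2346 CPM in WT and 3667, 3629 and 3544 CPM in SKG. No genotypes overlapped in any subset.

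The NKT1 and NKT17 differences of *Cxcr6* were 1.39-fold each, at adjusted p of 0.0298 and 0.0136 by edgeR, and so fell short of the 1.5-fold minimum. The effect in NKT2 was larger than in NKT1 by 0.73 on the log2 scale (adjusted p = 0.0169), and the interaction of NKT17 with NKT2 was -0.74 (adjusted p = 0.0241). *Cxcr6* lies inside *Fyco1* on the opposite strand, with 0 exon bases shared. Among its 3 nearest genes was *Selplg* (0.264 SD), which encodes the selectin ligand PSGL-1, at 2160 CPM in WT NKT1 and 454 CPM in WT NKT2.

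**Figure D4:**
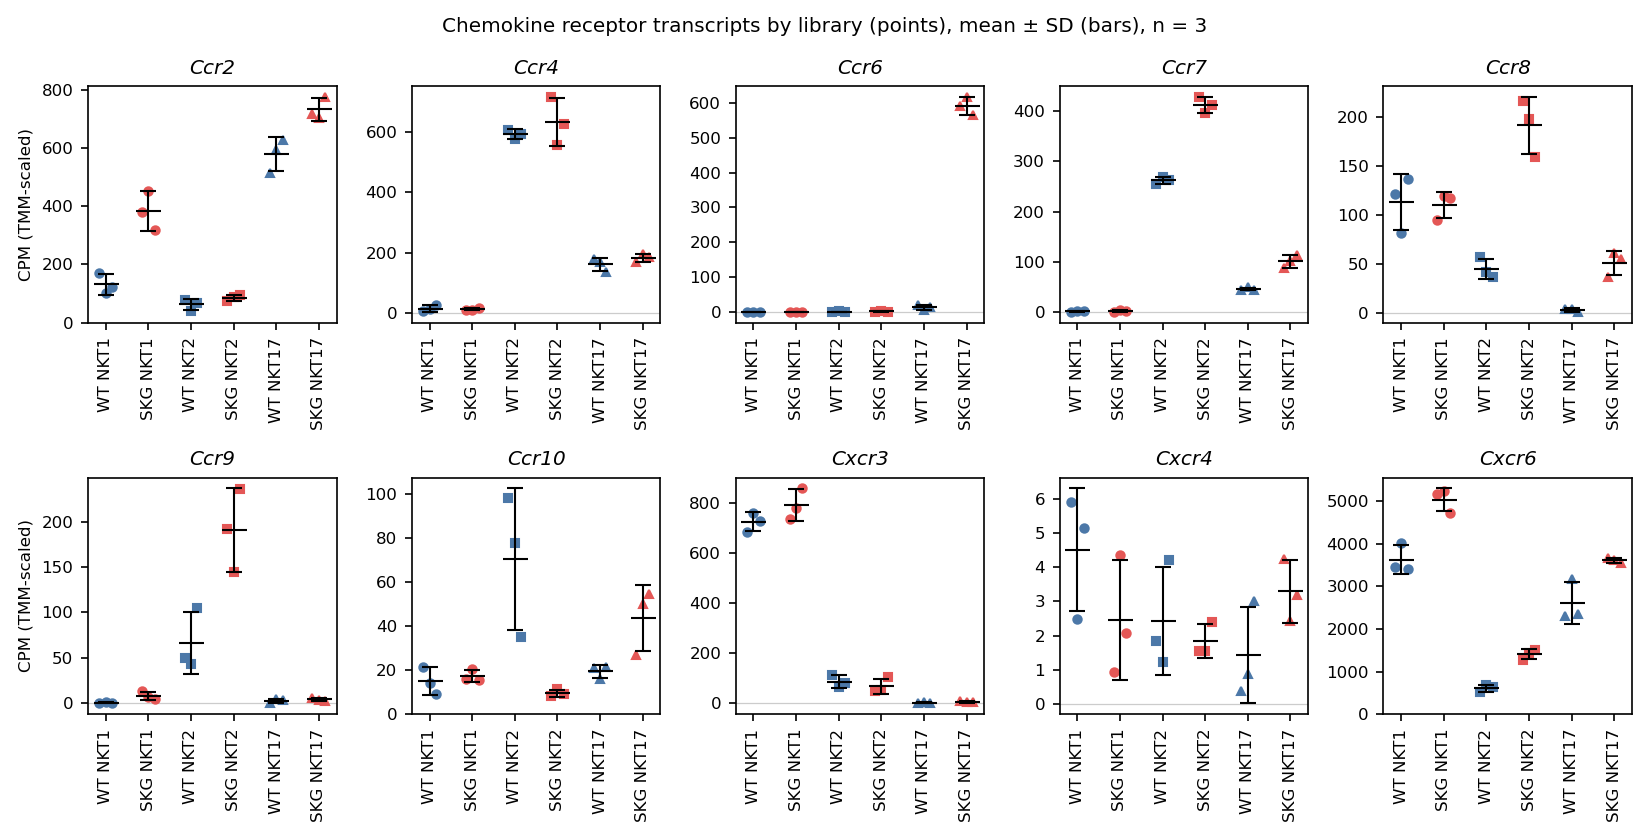
CPM of each receptor in all 18 libraries (blue WT, red SKG; circles NKT1, squares NKT2, triangles NKT17), with mean ± SD of 3 libraries as bars and a separate linear axis for each gene. *Ccr6* rises from 12.0 to 592 CPM in NKT17, *Ccr8* from 3.26 to 51.0 CPM in NKT17, and *Ccr10* drops from 70.3 to 9.49 CPM in NKT2.

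Of the 10 genes, 3 lie among 6 receptor genes within 441 kb of chromosome 9, and their patterns did not run together. From *Ccr9* (NCBIM37, chr9:123587557-123691089) through *Cxcr6* (chr9:123715595-123720872), *Xcr1*, *Ccr1* and *Ccr3* to *Ccr2* (chr9:124016689-124028296), the highest WT mean was in NKT2 for *Ccr9*, in NKT1 for *Cxcr6* and in NKT17 for *Ccr2*. *Ccr1* and *Ccr3* held at most 0.137 CPM in any group. *Xcr1*, the gene next to *Cxcr6*, ranged from 5.12 to 24.6 CPM and, like *Cxcr6*, had its highest WT mean in NKT1 (22.6 CPM).

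**Figure D5:**
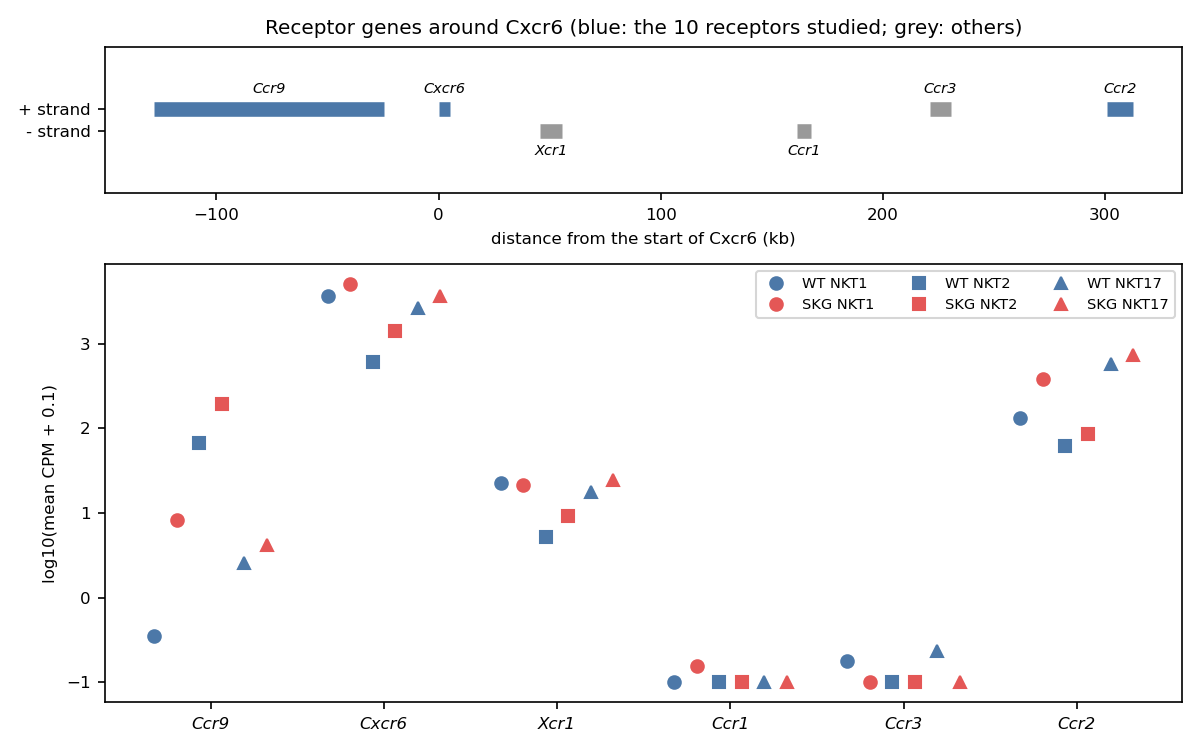
Top, receptor genes by distance in kb from the start of *Cxcr6*, blue for the receptors described here and grey for others; bottom, mean of 3 libraries per group as log10(CPM + 0.1). The 3 blue genes peak in different subsets, with *Ccr9* highest in SKG NKT2 (191 CPM), *Cxcr6* in SKG NKT1 (5044 CPM) and *Ccr2* in SKG NKT17 (734 CPM).

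The other genes of the pathway were taken from 4 lists. Of 24 other chemoattractant receptors, 12 were tested, with median log2 fold changes of -0.14, 0.35 and 0.22 in SKG NKT1, NKT2 and NKT17, beside -0.01, -0.00 and 0.00 over all genes. In SKG NKT1, *S1pr1*, the receptor through which T cells leave the thymus, rose from 11.0 to 40.2 CPM (adjusted p = 0.00651 by edgeR), and *Ptger4*, a prostaglandin E2 receptor, rose from 112 to 186 CPM. In SKG NKT2, *Gpr183*, an oxysterol receptor, rose from 78.9 to 203 CPM and *Ptger4* fell from 186 to 99.2 CPM. In SKG NKT17, *S1pr1* rose from 1.62 to 20.5 CPM (adjusted p = 2.52e-05 by edgeR) and *Ccrl2*, a non-signalling chemerin-binding receptor, fell from 13.8 to 3.67 CPM.

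Of 33 chemokine ligands, 6 were tested. Between genotypes 1 was called, in NKT1 (3.27% of all genes), and 0 in NKT2 (7.95%) and NKT17 (8.37%). Their median was -0.78 in SKG NKT1. In NKT2 and NKT17, *Ccl3*, *Ccl4*, *Ccl5* and *Xcl1* had group means of at most 2.78 CPM, and no median is given there. *Ccl5*, a chemokine that attracts T cells, rose in SKG NKT1 from 451 ± 181 to 1277 ± 100 CPM (2.83-fold, adjusted p = 0.0176 by edgeR). Among WT subsets, *Ccl3*, *Ccl4*, *Ccl5* and *Xcl1* were each higher in NKT1 than in NKT2 and NKT17. *Xcl1* stood at 413 CPM in WT NKT1, at least 817-fold above the floor of WT NKT17.

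Of 42 genes of receptor signalling and desensitisation, 41 were tested, with medians of -0.06, 0.20 and 0.12 in the same order. SKG cells had 1 higher in NKT1 (1.46% of all genes), 3 higher and 1 lower in NKT2 (3.90% and 4.05%) and 3 higher in NKT17 (3.83%). In all, 1, 4 and 3 of the 41 were called, against 3.27%, 7.95% and 8.37% of all genes, so the counts do not set this list apart. *Rasgrp2*, an exchange factor that activates Rap1 for integrin-dependent adhesion, rose in all 3 subsets, from 98.3 to 177 CPM in NKT1. *Gng2*, a G protein γ subunit, rose in NKT17 from 9.03 to 63.8 CPM (log2 fold change 2.80, SE 0.22, adjusted p = 2.78e-08 by edgeR). *Pik3r5*, a regulatory subunit of the G protein-activated PI3Kγ, rose in NKT2 and NKT17, from 31.4 to 62.9 CPM and from 37.5 to 61.7 CPM.

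Of 19 transcription factors linked to receptor control, 18 were tested, with medians of -0.19, -0.04 and 0.01. SKG cells had 1 higher and 1 lower in NKT1 (1.46% and 1.82% of all genes), 4 and 4 in NKT2 (3.90% and 4.05%), and 2 and 2 in NKT17 (3.83% and 4.54%). *Klf2*, which drives *S1pr1*, rose in SKG NKT17 from 15.9 to 93.1 CPM (adjusted p = 0.0909 by edgeR). It was not called in SKG NKT1, where *S1pr1* also rose, nor in SKG NKT2. A link between the 2 genes was not tested. *Rora* rose in NKT1 and NKT2, and *Hif1a* fell in NKT2 and NKT17, from 259 to 146 CPM in the latter. *Lef1* fell in SKG NKT17 from 79.1 to 8.66 CPM (log2 fold change -3.19, SE 0.22, adjusted p = 1.72e-08 by edgeR).

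By likeness over the 18 libraries, the genes nearest to *Ccr6* were *Fam189a1* (0.253 SD), *Hlf* (0.274) and *Tmigd1* (0.281). *Hlf* stood at 0.792 CPM in WT NKT17 and 13.0 CPM in SKG NKT17. *Ccr8* was nearest to *Dgka* (0.239 SD), which encodes a diacylglycerol kinase and stood at 92.1 CPM in WT NKT17 and 259 CPM in SKG NKT17. *Ccr2* was nearest to *Ly6g5b* (0.295 SD), and *Ccr9* to *Tesc* (0.399 SD).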

How the data were processed

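RNA from sorted thymic NKT1, NKT2 and NKT17 cells of WT and SKG mice was amplified by a Smart-seq2-type protocol with Nextera XT tagmentation, which keeps no strand. Read counts per gene were deposited by the authors as raw, unnormalised counts. The study's methods name alignment to mm9 with TopHat 1.4.1 and counting by htseq-count in union mode. The submitters' processing notes list Bowtie 1.0.0, TopHat 1.4.1, HTSeq 0.7.1 and the builds hg19 and mm10. The files name no build, so gene positions come from GENCODE M1 on NCBIM37, joined by symbol, and promoters from RefSeq on GRCm38.p6. Of the count columns, 2 belonged to no listed sample and were not used.

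Groups came from the cell type and genotype labels, with 3 libraries per group. Counts were tested with edgeR 4.0.16 (R 4.3.3) by robust quasi-likelihood F tests in 1 fit of 18 libraries and 6 groups (12 residual degrees of freedom), after TMM scaling (factors 0.928 to 1.07) and filterByExpr. The common biological coefficient of variation was 21.1%. Calls needed a Benjamini-Hochberg adjusted p under 0.1 over 11118 genes and a 1.5-fold change, two-sided. The fits were run on simulated counts with known changes, of which they recovered most but not all. Levels are TMM-scaled CPM, and SE is the log2 fold change divided by the root of F. A floor of 3 counts per library covers counting error only, since the reads carry no molecular identifiers.

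Named genes were the 10 receptors. From each of 4 pathway lists the rule took called genes averaging 50 or more counts where they were higher, namely the 2 largest changes per WT subset comparison and the 2 smallest adjusted p per genotype comparison. For receptors reaching 20 CPM, the 3 nearest genes by distance were added, along with *Zap70* and the subset markers. *Klf2*, *Cntnap1*, *Lztfl1*, *Xcr1*, *Ccr1*, *Ccr3* and the marker genes of other cells fell outside this rule. So did some members counted in the lists. All of these were named after their values were seen. The receptors and lists were chosen with earlier results of these data known. Alternatives were DESeq2 1.42.0, RLE and upper-quartile scaling, other filters and thresholds, a fit of only the compared libraries, a replicate block by a token that titles share, and leaving out single libraries. What a token marks is not stated. In each comparison of SKG with WT, the genotypes shared 2 tokens over 3 libraries each, so token and genotype are partly confounded. Across the tokens, 36 same-token pairs correlated at -0.151 to 0.351 (median 0.048) in their deviations from group means. All 3 pairs exceeded 0.1 only for NKT17 against NKT2 in WT (0.219 to 0.351). The values given for that comparison come from the fit without the block, and the block was an alternative there too.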

Additional observations from a re-analysis of the deposited data

Results flagged for a closer look

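Of the receptors, 4 showed SKG effects that differed between subsets by an interaction contrast in edgeR (log2 scale, adjusted p under 0.1 and at least 1.5-fold, 3 libraries per group). Of all genes tested, 3.87% were called for NKT2 minus NKT1, 4.17% for NKT17 minus NKT1 and 2.19% for NKT17 minus NKT2.

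For *Ccr8* the SKG effect was larger in NKT2 than in NKT1 by 2.11, larger in NKT17 than in NKT1 by 4.04 and larger in NKT17 than in NKT2 by 1.92. For *Ccr10* the difference was -3.08 for NKT2 minus NKT1 and 4.05 for NKT17 minus NKT2, the latter from a fall in NKT2 and a rise in NKT17. For *Ccr2* it was -1.10 for NKT2 minus NKT1 and -1.20 for NKT17 minus NKT1. For *Cxcr6* it was 0.73 for NKT2 minus NKT1 and -0.74 for NKT17 minus NKT2.

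*Cntnap1*, which encloses *Ccr10*, had differences of -3.66 for NKT2 minus NKT1 (adjusted p = 0.0243 by edgeR) and 4.35 for NKT17 minus NKT2 (0.00686).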

How the results depend on the processing

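Of 66 receptor results called, 58 kept their call under all of their 13 to 21 alternatives, 8 lost it in at least 1 and 0 changed sign. Besides those given above, *Ccr9* between NKT1 and NKT17 in WT was lost in 6 of 14 (adjusted p up to 0.222), and *Cxcr6* for NKT17 minus NKT2 without WT NKT17 replicate 2, where the log2 difference was -0.57. Of 54 results not called, 12 were called in at least 1 alternative and 14 changed sign. With 1 library left out, receptors called ranged from 1 to 2 for SKG NKT1 (2 with all libraries; 1 without replicate 1 of WT or SKG NKT1) and from 2 to 4 for SKG NKT17 (4 with all; 2 without SKG NKT17 replicate 2 or 3). Genes called ranged from 296 to 537 for the SKG effect in NKT17 minus NKT1 (464 with all; 296 without SKG NKT17 replicate 3) and from 157 to 256 for NKT17 minus NKT2 (244 with all; 157 without SKG NKT17 replicate 1). Genes called in SKG NKT1 went from 364 to 207 in a fit of only the compared libraries. Those in SKG NKT17 went from 931 to 1398 with no fold minimum. At an adjusted p under 0.05, the interactions fell to 278 and 155. The cause was not tested for the left-out libraries.

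With the replicate block, receptors called went from 4 to 3 in SKG NKT17 and from 7 to 8 between NKT1 and NKT2 in SKG, and NKT17 against NKT2 in WT, where all 3 pairs passed 0.1, stayed at 9. The block turned the sign of *Ccr8* in SKG NKT1 (0.11), *Ccr4* in SKG NKT2 (-0.03) and *Cxcr6* for NKT17 minus NKT1 (0.00), none of them called. Sign changes when 1 library was left out also touched only uncalled log2 values. In SKG NKT1 these ranged from -0.67 to 0.45 for *Ccr4*, -0.19 to 0.13 for *Ccr8* and -0.06 to 0.57 for *Ccr10*. In SKG NKT2 they ranged from -0.00 to 0.18 for *Ccr4* and -0.71 to 0.28 for *Cxcr4*, and *Cxcr4* between NKT1 and NKT2 in SKG ranged from -0.29 to 0.78. For NKT2 minus NKT1 they ranged from -0.35 to 0.76 for *Ccr4*, -1.32 to 1.78 for *Ccr6* and -1.93 to 0.36 for *Ccr7*. For NKT17 minus NKT1 they ranged from -0.26 to 0.85 for *Ccr4*, -1.44 to 0.81 for *Ccr7* and -0.12 to 0.13 for *Cxcr6*. For NKT17 minus NKT2 they ranged from -0.31 to 0.13 for *Ccr2* and -0.01 to 0.19 for *Ccr4*.

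Depth limits *Ccr6* and *Ccr9* outside their high groups and *Cxcr4* throughout, where libraries held few counts.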
